A study of Mus musculus with 12 samples.

Results

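Cell death genes of the Bcl2 family and Ripk3 were followed in hearts in which the RNA helicase gene Ddx5 was deleted, 9 genes in all, namely Bcl2, Bcl2l1, Mcl1, Bcl2l11, Bbc3, Pmaip1, Bid, Bak1 and Ripk3. They were taken by gene symbol from the deposited count tables, and all 9 were found among the 16673 genes present in both tables. None of the 9 encodes a caspase, so caspases are described only among the neighbouring genes of the pathway. RNA of the left ventricle of male mice was sequenced in 12 libraries, 3 in each of 4 groups, to examine what Ddx5 does in the heart. The constitutive knockout (mCKO, DDX5fl/fl with MYH6Cre) was taken untreated at 8 weeks of age. Its controls (CTR1) were untreated, age-matched Ddx5flox/flox mice. The inducible knockout (iCKO, Ddx5flox/flox with Myh6MerCreMer) received intraperitoneal tamoxifen at 20 mg/kg/day on 5 days running, and hearts were collected after 7 days, counted from an injection that the design text does not name. Its controls (CTR2) were age-matched Ddx5flox/flox mice given the same tamoxifen, and the ages of these animals are not stated. Floxed Ddx5 alleles were thus common to all groups, and tamoxifen was common to iCKO and CTR2. Both Cre forms are driven by the Myh6 promoter, which is active in cardiomyocytes, while the RNA came from all cells of the ventricle. Neither control group carried Cre, so an effect of Cre itself, or of tamoxifen acting on MerCreMer, cannot be told apart from the loss of Ddx5. The labels do not say that libraries of a group came from separate animals, and p-values then measure only the spread between these libraries.

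Mitochondrial apoptosis is decided among proteins of the Bcl2 family. Bcl2, Bcl-xL (the product of Bcl2l1) and Mcl1 hold cells alive by binding the pore-forming effectors Bax and Bak (the product of Bak1) and the activators that switch them on. These activators and sensitisers, the BH3-only proteins, include Bim (Bcl2l11), Puma (Bbc3), Noxa (Pmaip1) and Bid. Once Bax and Bak open the outer mitochondrial membrane, cytochrome c reaches Apaf1 and starts the caspase cascade. Puma and Noxa were described as products of p53 target genes, Bim transcription is known to be driven by FoxO factors, and Bid is cut by caspase 8 downstream of death receptors. Ripk3 stands outside the family: this kinase phosphorylates Mlkl to cause necroptosis, a lytic death that needs no caspase. Heart muscle depends on Mcl1 for survival, and cardiomyocytes rarely divide, so that lost cells are hardly replaced.

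The labels were first checked on Ddx5 itself, which averaged 228 CPM in mCKO against 556 CPM in CTR1, and 209 CPM in iCKO against 620.0 CPM in CTR2. CPM here stands for counts of a gene brought to the same sequencing depth in each library, with TMM scaling. Libraries held 19682268 to 25871882 gene counts, so that a count of 0 allows up to 0.106 to 0.157 CPM (3 counts, counting error only). Replicate 3 of both mCKO and CTR1 stood apart from replicates 1 and 2 on the leading principal component of that experiment, which held 59.8% of its variance. Results of the mCKO experiment are therefore given with the replicate number as a block, and for some genes also without it. Without the block edgeR called 0% of genes in that experiment. In the iCKO experiment the leading component, with 79.7% of variance, separated iCKO from CTR2. The next held 9.4% and set iCKO replicate 3 and CTR2 replicate 2 apart from the rest.

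The regions before the transcription starts of 4 members are printed here, because these genes were called in iCKO and their windows hold one of the motifs searched. They are RefSeq windows on GRCm38.p6, 250 bases before the start written 5′ to 3′ on the strand of the gene, without bases that an annotated exon holds. Capitals mark the forkhead motif (GTAAACA, read as TGTTTAC on the other strand) in Bbc3 and Bcl2l11, and the GC box (GGGCGG) in Bid and Ripk3, where the last box of Bid runs on into the exon.
Bbc3, chr7:16310011-16310260, plus strand: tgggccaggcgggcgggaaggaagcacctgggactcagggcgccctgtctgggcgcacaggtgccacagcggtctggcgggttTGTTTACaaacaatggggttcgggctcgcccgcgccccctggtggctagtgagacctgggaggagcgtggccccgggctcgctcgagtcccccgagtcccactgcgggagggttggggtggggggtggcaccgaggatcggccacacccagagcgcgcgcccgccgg
Bcl2l11, chr2:128125788-128126037, plus strand: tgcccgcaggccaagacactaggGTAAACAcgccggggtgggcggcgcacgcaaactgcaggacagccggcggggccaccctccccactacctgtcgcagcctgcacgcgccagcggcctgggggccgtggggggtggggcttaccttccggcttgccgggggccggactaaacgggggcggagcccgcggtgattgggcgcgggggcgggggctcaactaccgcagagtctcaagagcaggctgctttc
Bid, chr6:120916854-120917074, minus strand: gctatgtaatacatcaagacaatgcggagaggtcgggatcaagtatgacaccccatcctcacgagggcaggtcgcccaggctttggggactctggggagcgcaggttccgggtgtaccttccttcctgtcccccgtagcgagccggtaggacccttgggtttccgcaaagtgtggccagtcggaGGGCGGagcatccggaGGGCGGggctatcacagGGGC
Ripk3, chr14:55788866-55789107, minus strand: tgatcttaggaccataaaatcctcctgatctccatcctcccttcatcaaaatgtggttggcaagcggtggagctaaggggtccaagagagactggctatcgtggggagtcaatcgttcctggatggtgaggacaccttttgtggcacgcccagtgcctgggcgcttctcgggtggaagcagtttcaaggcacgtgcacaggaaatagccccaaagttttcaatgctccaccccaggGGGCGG
The windows searched ran from 250 bases before to 50 after each start, on both strands, and 13 of them belonged to 8 members. The forkhead motif stood in 1 of 3 Bbc3 windows and 1 of 2 Bcl2l11 windows, against 3.65% of all 32851 mouse windows. It lay at -167 to -161 from the start in Bbc3 and at -227 to -221 in Bcl2l11. The GC box stood in 35.7% of all windows, and in windows of Bcl2, Bcl2l11, Mcl1, Bid, Bbc3 and Ripk3, but in none of Bcl2l1 or Bak1. Neither the p53-binding decamer (in 8.36% of all windows) nor the ATF4 element TGATGNAA (in 3.97%) was found in the windows of these 8 genes. Pmaip1 was not among these 8, and its windows are not reported here. A match is only a run of letters, and no occupancy was measured here.

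**Figure D1:**
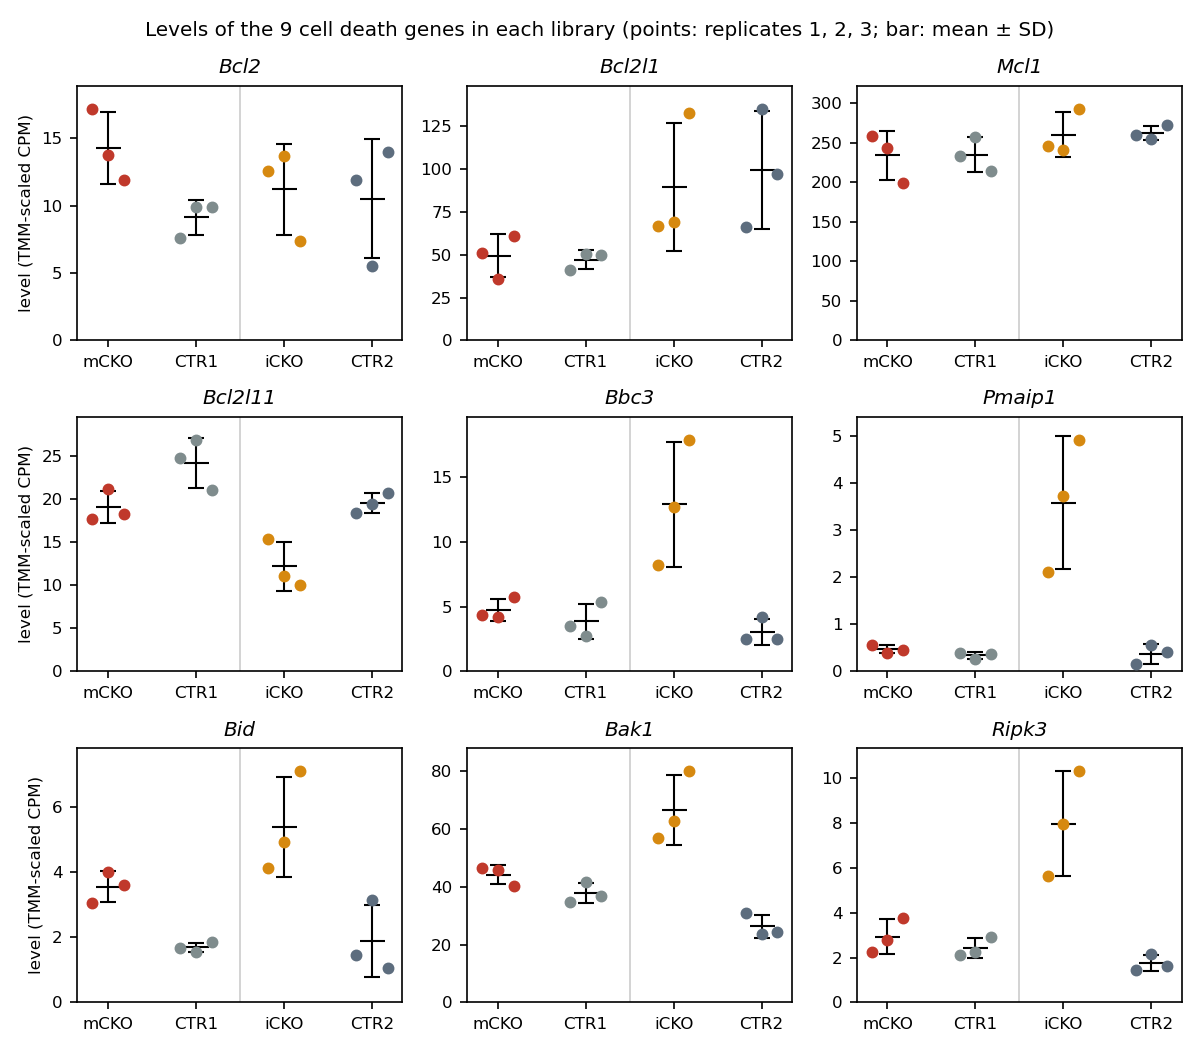
TMM-scaled CPM of the 9 genes (y axes, each from 0) in the 12 libraries of mCKO, CTR1, iCKO and CTR2. Points are replicates 1, 2 and 3 from left to right, and bars the mean ± SD; the 3 iCKO libraries lie above the 3 CTR2 libraries for Bbc3, Pmaip1, Bid, Bak1 and Ripk3, and below them for Bcl2l11.

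Of the pro-survival genes, Mcl1 and Bcl2l1 were called in neither knockout, while Bcl2 was higher in mCKO with the block. Mcl1 (Entrez 17210, chromosome 3, 95656944 to 95663179, plus strand, GRCm38, as all coordinates here) had 259, 243 and 199 CPM in mCKO, against 233, 257 and 213 CPM in CTR1. In iCKO it had 246, 241 and 292 CPM, against 260.0, 254 and 272 CPM in CTR2. The groups overlapped in both experiments. Its log2 fold change was -0.01 ± 0.07 (SE) in mCKO with the block and -0.01 ± 0.15 in iCKO, with adjusted p of 0.95 in either (edgeR quasi-likelihood, Benjamini-Hochberg over all genes). The sign of so small a value turned with scaling by library totals, which gave 0.07 in mCKO without the block and 0.19 in iCKO.

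Bcl2l1 (Entrez 12048, chromosome 2, 152758732 to 152833803, minus strand) spread widely. It had 51.3, 36.1 and 60.9 CPM in mCKO, against 41.1, 50.6 and 49.97 CPM in CTR1. In iCKO it had 66.6, 69.3 and 133 CPM, against 65.9, 135 and 97.3 CPM in CTR2. Its highest libraries were iCKO replicate 3 and CTR2 replicate 2, the pair that stood apart on the second component of that experiment. The log2 fold change was 0.05 ± 0.18 in mCKO with the block (adjusted p = 0.90) and -0.15 ± 0.33 in iCKO (adjusted p = 0.74), and the iCKO value turned to 0.05 with scaling by library totals.

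Bcl2 (Entrez 12043, chromosome 1, 106538176 to 106714290, minus strand), the founding member of the family, had 17.2, 13.8 and 11.9 CPM in mCKO, against 7.63, 9.92 and 9.87 CPM in CTR1. All mCKO libraries were above all CTR1 libraries. With the block it rose by 0.64 ± 0.17 on the log2 scale (adjusted p = 0.035), while without it the same change had an adjusted p of 0.36. In iCKO it had 12.6, 13.7 and 7.38 CPM, against 11.9, 5.56 and 14.03 CPM in CTR2. These groups overlapped, and the lowest library of each was iCKO replicate 3 and CTR2 replicate 2. The iCKO value of 0.10 ± 0.36 was not called (adjusted p = 0.84), and the 2 changes did not differ by test (difference 0.59 ± 0.44, adjusted p = 0.37).

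Bak1 (Entrez 12018, chromosome 17, 27019812 to 27028627, minus strand), the pore-forming effector among the members, was higher in iCKO. It had 56.8, 62.6 and 80.0 CPM in iCKO, against 30.9, 23.6 and 24.4 CPM in CTR2. The lowest iCKO library was above the highest CTR2 library. It rose by 1.34 ± 0.18 on the log2 scale (adjusted p = 0.00077), a mean of 66.5 ± 12.1 CPM in iCKO and 26.3 ± 4.01 CPM in CTR2 (SD, n = 3 each). In mCKO it had 46.6, 45.6 and 40.3 CPM, against 34.7, 41.5 and 36.9 CPM in CTR1, and the groups overlapped. That change did not pass the test with the block (0.23 ± 0.08, adjusted p = 0.080) or without it (adjusted p = 0.66). The exons of Bak1 share 614 bases, 25.5% of their length, with Ggnbp1 on the opposite strand, and the use of strand in counting is not stated. Ggnbp1 itself fell in iCKO (-1.93 ± 0.17, adjusted p = 0.00011), the opposite direction to Bak1.

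Among the BH3-only genes, Bbc3 (Entrez 170770, chromosome 7, 16308398 to 16318334, plus strand) had 8.22, 12.7 and 17.9 CPM in iCKO, against 2.48, 4.19 and 2.50 CPM in CTR2. Every iCKO library was above every CTR2 library. It rose by 2.07 ± 0.34 on the log2 scale (adjusted p = 0.0017), with means of 12.9 ± 4.82 CPM in iCKO and 3.06 ± 0.982 CPM in CTR2 (SD, n = 3 each). In mCKO it had 4.34, 4.22 and 5.71 CPM, against 3.52, 2.72 and 5.33 CPM in CTR1. Replicate 3 was the highest library of both groups, which overlapped, and the change of 0.32 ± 0.17 did not pass the test with the block (adjusted p = 0.25).

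Pmaip1 (Entrez 58801, chromosome 18, 66458604 to 66465558, plus strand) was close to the limit of detection outside iCKO. It had 2.12, 3.73 and 4.92 CPM in iCKO (58, 106 and 132 counts), against 0.15, 0.57 and 0.41 CPM in CTR2 (3, 12 and 8 counts). The groups did not overlap, and the log2 fold change was 3.23 ± 0.49 (adjusted p = 0.0013). Pmaip1 passed the filter on low counts in that experiment only through the iCKO libraries. In mCKO it had 0.57, 0.40 and 0.46 CPM (13, 8 and 11 counts), against 0.39, 0.26 and 0.37 CPM in CTR1 (8, 5 and 8 counts). All mCKO libraries were above all CTR1 libraries, but the gene was under the filter, and without the filter the change was 0.47 ± 0.45 (adjusted p = 0.86).

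Bid (Entrez 12122, chromosome 6, 120893119 to 120917062, minus strand) was the member with the largest fold change in mCKO among the 8 tested. It had 3.07, 4.02 and 3.61 CPM in mCKO, against 1.66, 1.57 and 1.85 CPM in CTR1, with no overlap. With the block it rose by 1.06 ± 0.21 on the log2 scale (adjusted p = 0.0087), and without it the change of 1.07 ± 0.21 was not called (adjusted p = 0.23). In iCKO it had 4.13, 4.93 and 7.12 CPM, against 1.47, 3.15 and 1.07 CPM in CTR2, also without overlap. It rose there by 1.497 ± 0.41 (adjusted p = 0.018), a call that ended without CTR2 replicate 1 (adjusted p = 0.067) and without CTR2 replicate 3 (adjusted p = 0.060). Bid shares 628 exon bases (17.7%) with Bcl2l13 on the opposite strand. Bcl2l13 fell in iCKO (-0.63 ± 0.14, adjusted p = 0.0074) and, with the block, in mCKO (-0.26 ± 0.07, adjusted p = 0.033), opposite to Bid.

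Bcl2l11 (Entrez 12125, chromosome 2, 128126038 to 128162547, plus strand) was the member that moved down. It had 15.4, 11.1 and 10.1 CPM in iCKO, against 18.4, 19.4 and 20.8 CPM in CTR2. All iCKO libraries lay below all CTR2 libraries. It fell by 0.68 ± 0.19 on the log2 scale (adjusted p = 0.021), a call lost without iCKO replicate 2 or CTR2 replicate 3 (adjusted p = 0.077 in either) and with scaling by library totals (-0.47, adjusted p = 0.083). In mCKO it had 17.7, 21.2 and 18.3 CPM, against 24.7, 26.8 and 21.05 CPM in CTR1. The highest mCKO library and the lowest CTR1 library overlapped narrowly. With the block it fell by 0.34 ± 0.09 (adjusted p = 0.030), a call lost without the block (adjusted p = 0.54) and with the block under scaling by library totals (adjusted p = 0.073). It was past the threshold in 1 of 16 alternatives, the block.

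Ripk3 (Entrez 56532, chromosome 14, 55784995 to 55788857, minus strand), the necroptosis kinase, had 5.62, 7.96 and 10.3 CPM in iCKO, against 1.47, 2.17 and 1.63 CPM in CTR2. The groups were far apart. It rose by 2.18 ± 0.29 on the log2 scale (adjusted p = 0.00070), with means of 7.97 ± 2.35 CPM in iCKO and 1.76 ± 0.365 CPM in CTR2 (SD, n = 3 each). In mCKO it had 2.23, 2.76 and 3.78 CPM, against 2.10, 2.25 and 2.92 CPM in CTR1. These groups overlapped, and the change of 0.26 ± 0.20 with the block did not pass the test (adjusted p = 0.44).

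**Figure D2:**
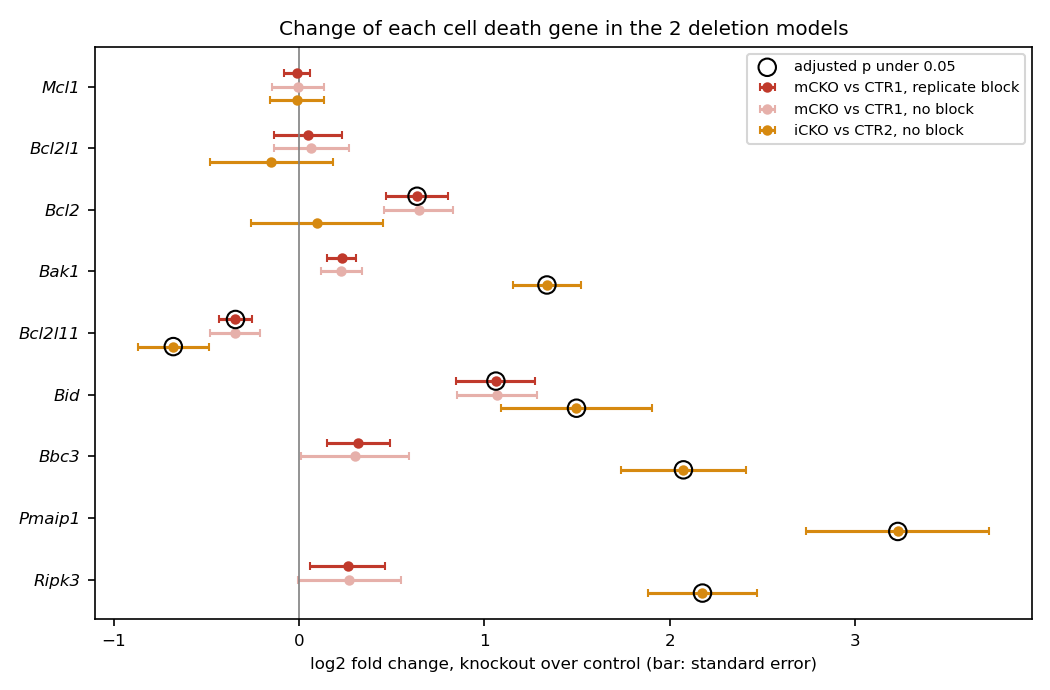
Log2 fold change (x axis) of each gene (rows) in mCKO over CTR1, with and without the replicate block, and in iCKO over CTR2; bars are standard errors and rings mark an adjusted p under 0.05. Bak1, Bid, Bbc3, Pmaip1 and Ripk3 reach 1.34 to 3.23 in iCKO. Pmaip1 has no mCKO point because it was under the filter on low counts.

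Counted together, 5 of 9 members rose and 1 fell in iCKO, Pmaip1 among the 5 having passed the filter only through iCKO libraries, where the test called 44.8% of all genes tested, 25.2% higher and 19.5% lower. Of those genome-wide calls 56.4% were higher, and 71.5% with scaling by library totals. Without iCKO replicate 3 and CTR2 replicate 2, an alternative chosen after seeing the data, the counts of members were again 5 and 1. All 5 that rose, and the 1 that fell, had no overlap between groups, as had 58.9% of all genes in that experiment (31.9% above and 27% below). The members' median log2 fold change was 1.34, against 0.03 over all genes. That background is high, and no weight is put on the count by itself. In mCKO the block gave 2 members higher and 1 lower of 8 tested, against 13.8% of all genes called (7.32% higher and 6.45% lower), with a median of 0.25. With the block but without both libraries numbered 3, none of these 3 was called (adjusted p of 0.087 for Bid, 0.083 for Bcl2 and 0.093 for Bcl2l11), on fewer libraries. Without the block edgeR called 0 members and 0% of genes, while 3 members and 1164 genes had an unadjusted p under 0.05. DESeq2 called 1 member, Bid (1.06, adjusted p = 0.013), and limma-voom none. Without the block and without both libraries numbered 3, Bcl2 (0.82, adjusted p = 0.021) and Bid (1.12, adjusted p = 0.037) were called. Bcl2, Bid and Pmaip1 were the 3 members whose mCKO libraries all lay above CTR1, Pmaip1 being under the filter on low counts. Of the 13353 genes past that filter, 7.69% lay above in the same way.

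The 2 knockouts differed for 4 of the 9 members when the difference itself was tested, where 20.8% of genes were called and 9.88% in the direction of these 4. The mCKO change was the lower in each. The difference (mCKO change minus iCKO change, log2) was -1.08 ± 0.23 for Bak1 (adjusted p = 0.0073) and -1.88 ± 0.42 for Ripk3 (adjusted p = 0.0093). For Pmaip1 it was -2.72 ± 0.69 (adjusted p = 0.017), and for Bbc3 -1.75 ± 0.48 (adjusted p = 0.025). Outside iCKO, Pmaip1 had only 13, 8 and 11 counts in mCKO, 8, 5 and 8 in CTR1 and 3, 12 and 8 in CTR2. It was under the filter in the mCKO experiment and passed only through iCKO libraries in the iCKO experiment, which limits its difference. The Bbc3 call ended without mCKO replicate 1, iCKO replicate 3, CTR2 replicate 1 or CTR2 replicate 3 (adjusted p at most 0.058). The Bid effects did not differ by test (-0.40 ± 0.51, adjusted p = 0.61), nor did those of Bcl2l11 (0.37 ± 0.23, adjusted p = 0.27). The 2 experiments also differ in the Cre used, in tamoxifen and in the time of deletion, and these cannot be told apart.

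The sums of markers of other cells were set beside these results. Over all genes 25.2% were called higher and 19.5% lower in iCKO, and 7.32% and 6.45% in mCKO with the block. The 9 macrophage markers summed to 595 to 1083 CPM in iCKO, against 249.8 to 326 CPM in CTR2, and 8 of the 9 rose. Neutrophil markers summed to 32.1 to 80.7 CPM in iCKO, against 5.25 to 14.5 CPM in CTR2, with 4 of 5 tested higher. Cxcr2 among these 4 passed the filter only through the iCKO libraries (8, 4 and 3 counts in CTR2). Cardiomyocyte markers summed to 47594 to 56655 CPM in iCKO, against 87416 to 98844 CPM in CTR2, and 6 of 8 fell. Fibroblast markers summed to 1947 to 3033 CPM in iCKO, against 844 to 910 CPM in CTR2, with 4 of 7 higher and 1 lower. Endothelial markers summed to 704 to 823 CPM in iCKO, against 1073 to 1228 CPM in CTR2, with 4 of 7 lower, and 5 of 5 red blood cell markers fell. Mural cell markers gave 2 higher and 2 lower of 6. Lymphocyte markers summed to 2.12 to 3.09 CPM in iCKO, against 0.235 to 1.22 CPM in CTR2, and all were under the filter there. Atrial markers summed to 28.9 to 33.3 CPM in iCKO, against 4.05 to 13.1 CPM in CTR2, with 1 of 3 tested higher. The atrial sum was 30.3 CPM in CTR1 replicate 1, against 3.34 and 8.85 CPM in CTR1 replicates 2 and 3, and 5.74 to 14.6 CPM in mCKO. In mCKO the macrophage sum was 473 to 689 CPM, against 351 to 430 CPM in CTR1, and all 9 markers were higher with the block. The cardiomyocyte sum was 60360 to 89659 CPM in mCKO, against 70649 to 102227 CPM in CTR1, with 5 of 8 lower with the block. There 3 of 7 fibroblast markers were higher with the block and none of the endothelial or red blood cell markers was called. The neutrophil marker Ly6g was at 0 in every mCKO library and reached 0.075 CPM at most in iCKO. Within iCKO, replicate 1 was lowest and replicate 3 highest for Bbc3, Pmaip1, Bid, Bak1 and Ripk3, and also for the macrophage and neutrophil sums. The leading component over all genes of that experiment had the same order, with scores of 47.5, 65.1 and 80.6 in iCKO replicates 1, 2 and 3. The order is thus not particular to these genes, and the share of all genes with it was not counted. The part of the cells with these markers in the changes was not tested. Fewer cells of a type cannot be told apart from less RNA per cell in bulk tissue.

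To set levels of different genes side by side, CPM were divided by the kilobases of exon in GENCODE M21. Mcl1 was the most abundant member in each group, with 75.9 CPM per kb in iCKO against 76.6 in CTR2, and 68.4 in mCKO against 68.6 in CTR1. Bak1 was second in iCKO at 27.6 CPM per kb, ahead of Bcl2l1 at 19.5, although their libraries overlapped. In CTR2 the order was the other way, with Bcl2l1 at 21.7 and Bak1 at 10.9 CPM per kb and no overlap. Per length of the longest transcript in place of all exons, Bcl2l1 stood ahead of Bak1 in all 4 groups. Bbc3 and Ripk3 were next in iCKO at 6.08 and 3.48 CPM per kb, and overlapped each other. Bid (1.52), Bcl2l11 (1.52), Pmaip1 (1.31) and Bcl2 (1.23) followed in iCKO, each overlapping its neighbour. In CTR2 the fourth place belonged to Bcl2l11 at 2.43 CPM per kb, clear of Bbc3 at 1.44. Bbc3 overlapped Bcl2 (1.15), Bcl2 overlapped Ripk3 (0.766) and Ripk3 overlapped Bid (0.535), while Pmaip1 was lowest at 0.137. In mCKO and CTR1 alike, Mcl1 was followed by Bak1, at 18.4 CPM per kb in mCKO and 15.7 in CTR1, and by Bcl2l1, at 10.8 in mCKO and 10.3 in CTR1, with no overlap between these neighbours in either group.

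The balance among the 4 BH3-only members shifted in iCKO. Of their summed CPM per kb, Bcl2l11 held 24.8, 13.7 and 9.31% in iCKO, against 58.3, 44.1 and 61.4% in CTR2. Bbc3 held 50.1, 59.1 and 62.4% in iCKO, against 29.7, 35.9 and 27.9% in CTR2. Among these 4 members, Bim transcripts thus held the largest share in every CTR2 library, and Puma transcripts in every iCKO library. The BH3-only genes Bad, Bik, Bmf and Hrk are not in these sums, and no CPM per kb is given for them. In iCKO the mean CPM of Bad and of Bik, not divided by length, was above that of Bbc3. The lead is therefore not shown for BH3-only genes as a class. The Pmaip1 share was 10.04, 13.5 and 13.4% in iCKO, against 1.42, 3.77 and 3.54% in CTR2. The Bid share averaged 14.6 ± 0.712% in iCKO and 11.3 ± 4.56% in CTR2 (SD, n = 3 each), and overlapped. In mCKO the Bcl2l11 share was 41.4, 44.6 and 37.0%, against 57.6, 64.8 and 45.3% in CTR1, with no overlap. The Bid share was 16.3, 19.2 and 16.5% in mCKO, against 8.75, 8.56 and 9.02% in CTR1, also with no overlap. Bbc3 shares overlapped, with means of 38.6 ± 5.01% in mCKO and 33.0 ± 9.46% in CTR1 (SD, n = 3 each).

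**Figure D3:**
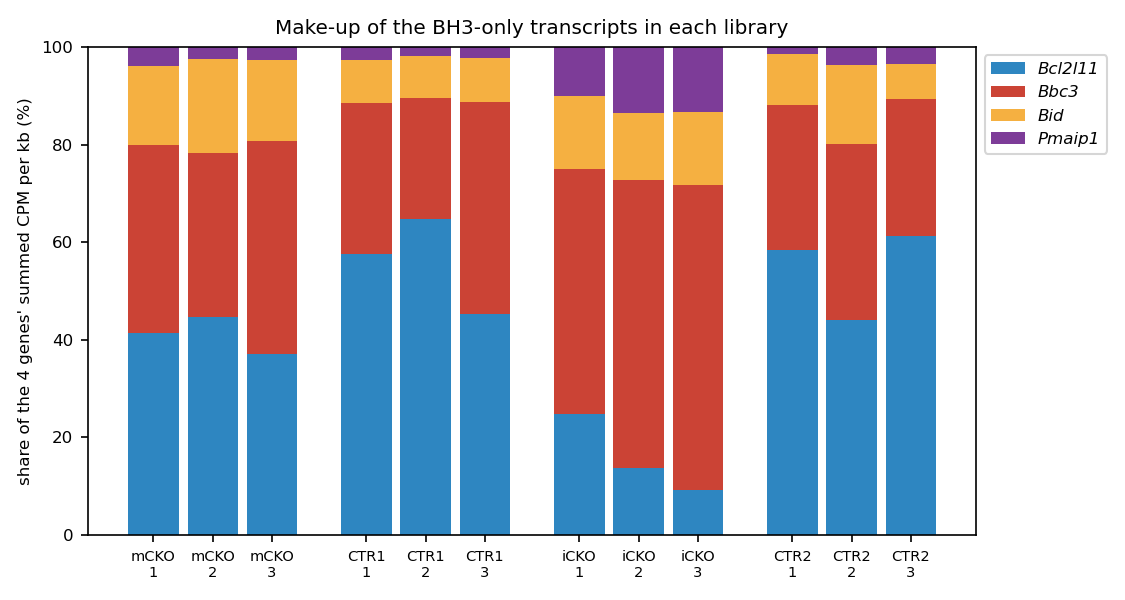
Share of Bcl2l11, Bbc3, Bid and Pmaip1 in their summed CPM per kb of exon (y axis, percent), 1 stacked bar for each of the 12 libraries of mCKO, CTR1, iCKO and CTR2. Bcl2l11 holds 9.31 to 24.8% in the iCKO libraries and 44.1 to 61.4% in the CTR2 libraries.

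The effectors Bax and Bak1 together came to 53.9, 59.1 and 63.9% of the summed CPM per kb of Mcl1, Bcl2l1 and Bcl2 in iCKO, against 23.4, 17.7 and 18.5% in CTR2. The sum of Bcl2l11, Bbc3, Bid and Pmaip1 came to 8.79, 11.6 and 11.7% of the same pro-survival sum in iCKO, against 4.28, 5.26 and 4.12% in CTR2. Neither ratio overlapped between these groups. In mCKO the effector ratio was 37.8, 44.4 and 52.6%, against 33.1, 33.0 and 42.0% in CTR1. The groups overlapped, while within each of the 3 same-numbered pairs the mCKO value was the higher. The BH3-only ratio was 5.99, 7.34 and 8.44% in mCKO, against 6.86, 5.91 and 7.78% in CTR1. It also overlapped, and in mCKO it was lower in pair 1 and higher in pairs 2 and 3. These are ratios of transcripts, not of protein, and carry no test of their own. They leave out other genes of each role, such as pro-survival Bcl2l2, with means of 74.6 CPM in iCKO and 72.1 CPM in CTR2.

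The counts by list that follow stand beside the shares over all genes tested, 25.2% called higher and 19.5% lower in iCKO. Without the block edgeR called no gene in mCKO, and with it these shares were 7.32% and 6.45%. Some list counts lie near them, and no weight is put on a count by itself. Among the other genes of the pathway, both further effectors rose in iCKO. Bax had 37.4, 40.0 and 63.7 CPM in iCKO, against 13.6, 13.7 and 13.8 CPM in CTR2 (1.78 ± 0.22, adjusted p = 0.00047), and Bok rose by 2.10 ± 0.31 (adjusted p = 0.0011). With the block, Bax also rose in mCKO by 0.43 ± 0.09 (adjusted p = 0.0079), at 22.3, 26.4 and 34.0 CPM in mCKO against 17.9, 18.3 and 25.0 CPM in CTR1. Of 7 BH3-only genes tested 4 rose and 1 fell in iCKO, the members plus Bik (1.39 ± 0.25, adjusted p = 0.0029). Leaving out iCKO replicate 1, iCKO replicate 3 or CTR2 replicate 2 gave 2 lower. Of 7 pro-survival genes tested 3 rose in iCKO, the near-identical paralogs Bcl2a1a, Bcl2a1b and Bcl2a1d, whose reads could be split among them, with log2 fold changes of 3.30 to 3.88. Bcl2a1a (1, 2 and 0 counts in CTR2) and Bcl2a1d (3, 5 and 2 counts in CTR2) passed the filter on low counts only through the iCKO libraries. Bcl2a1b (23, 13 and 7 counts in CTR2) also needed the iCKO libraries to pass. These paralogs are known from leukocytes.

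Of 7 genes of the apoptosome and the apoptotic caspases described here, 2 rose and 1 fell in iCKO. These counts are near the shares over all genes, 25.2% called higher and 19.5% lower. Casp8, the initiator at death receptors, rose by 1.34 ± 0.17 (adjusted p = 0.00047), and Apaf1, the apoptosome scaffold, by 1.02 ± 0.18 (adjusted p = 0.0022). Cycs, encoding cytochrome c of the respiratory chain, fell by 0.91 ± 0.18 (adjusted p = 0.0045). In mCKO 1 of these 7 was called with the block, Casp6, an executioner (0.39 ± 0.10, adjusted p = 0.031). Of 5 genes of nuclear execution 3 fell in iCKO. They were the nuclease gene Dffb (-1.41 ± 0.26, adjusted p = 0.0028), the mitochondrial nuclease gene Endog (-1.18 ± 0.21, adjusted p = 0.0027) and Aifm1 (-0.77 ± 0.13, adjusted p = 0.0021), whose product also serves assembly of respiratory complexes. None of the 5 was called in mCKO, with 1 at an unadjusted p under 0.05 with the block.

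Of 6 necroptosis genes 5 rose in iCKO, Ripk3 and among the others Mlkl, the executor that Ripk3 phosphorylates (1.73 ± 0.22, adjusted p = 0.00055), and the nucleic acid sensor Zbp1 (2.81 ± 0.43, adjusted p = 0.0013). Mlkl had 9.42, 10.04 and 8.87 CPM in iCKO, against 3.39, 3.01 and 2.14 CPM in CTR2. Beside the counts of this paragraph, 25.2% of all genes were called higher and 19.5% lower in iCKO. With the block in mCKO, 7.32% were called higher. Of 8 inflammatory caspase and pyroptosis genes 7 rose, among them the inflammasome sensor gene Nlrp3 (2.61 ± 0.25, adjusted p = 0.00017). That count was 6 without iCKO replicate 1, 5 without iCKO replicate 2, 4 without iCKO replicate 3, CTR2 replicate 1 or CTR2 replicate 3, and 3 without CTR2 replicate 2. Gsdme, also among the 7, passed the filter only through the iCKO libraries (2, 3 and 4 counts in CTR2). Of 9 death receptor genes 5 rose and 4 were not called. Those that rose included the TNF receptor gene Tnfrsf1a (1.43 ± 0.16, adjusted p = 0.00029) and Tnf itself (1.61 ± 0.27, adjusted p = 0.0021). In mCKO with the block, Zbp1 (0.96 ± 0.19, adjusted p = 0.0086) was the 1 necroptosis gene called. There Tnf rose too (1.39 ± 0.40, adjusted p = 0.043), as did Tnfrsf1a (0.28 ± 0.06, adjusted p = 0.017). Tnf had 33, 23 and 19 counts in mCKO against 10, 5 and 11 in CTR1, and needed the mCKO libraries to pass the filter. Of 9 genes of the inhibitor of apoptosis group and its antagonists 2 rose and 2 fell in iCKO, near the shares over all genes. Birc5, which also serves cell division, rose by 2.98 ± 0.43 (adjusted p = 0.00097), and Diablo, an antagonist released from mitochondria, fell by 0.48 ± 0.15 (adjusted p = 0.027). Birc5 (11, 10 and 7 counts in CTR2) needed the iCKO libraries to pass the filter on low counts. None of this list was lower with the block, or when any library other than iCKO replicate 3 was left out, and in these left-out fits 1 was higher. Of 3 genes of the Bnip3 group 1 fell in iCKO, Bnip3 itself (-1.59 ± 0.43, adjusted p = 0.017). That count was 0 without iCKO replicate 2 and 2 without iCKO replicate 3.

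Of 19 genes of p53 and its targets 11 rose and 2 fell in iCKO (12 and 4 without iCKO replicate 3), and in mCKO 9 of 18 rose with the block. Over all genes 25.2% were called higher and 19.5% lower in iCKO, and 7.32% higher in mCKO with the block. The p53 list holds Bbc3, Pmaip1, Bax and Apaf1 as well, of which Pmaip1 passed the filter in iCKO only through the iCKO libraries. The smallest adjusted p in both belonged to Phlda3, an inhibitor of Akt signalling, and Eda2r, a TNF receptor family gene. Phlda3 rose by 2.68 ± 0.21 in iCKO (adjusted p = 8.4e-05) and by 1.89 ± 0.13 in mCKO with the block (adjusted p = 0.00017). Eda2r rose by 2.18 ± 0.21 in iCKO (adjusted p = 0.00015) and by 1.85 ± 0.15 in mCKO (adjusted p = 5.4e-05 with the block, 0.069 without it). Ccng1 fell in iCKO (-1.33 ± 0.18, adjusted p = 0.00075) and rose in mCKO with the block (0.38 ± 0.06, adjusted p = 0.0025). Of 9 genes for factors known to act on the members 5 rose and 2 fell in iCKO. Without iCKO replicate 2 or CTR2 replicate 3 these counts were 3 and 1, without CTR2 replicate 1 they were 3 and 2, and without CTR2 replicate 2 they were 5 and 1. Those that fell were Foxo3 (-1.57 ± 0.28, adjusted p = 0.0027) and Foxo1 (-0.76 ± 0.24, adjusted p = 0.031), and neither was called in mCKO with the block (0.16 ± 0.15 and 0.07 ± 0.08). Trp53, the gene of p53, rose by 0.87 ± 0.16 in iCKO (adjusted p = 0.0025).

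**Figure D4:**
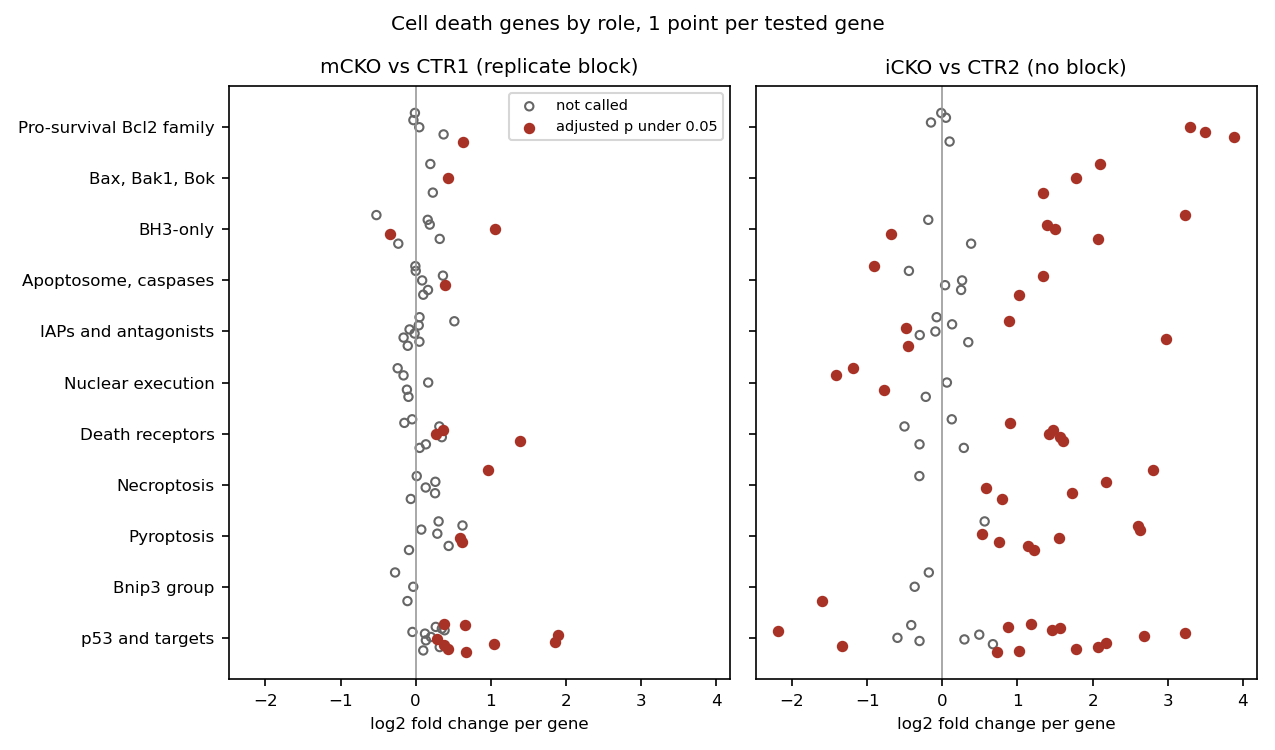
Log2 fold change (x axes) of each tested gene in 11 groups of cell death genes (rows), in mCKO over CTR1 with the replicate block (left) and in iCKO over CTR2 without it (right). Filled points have an adjusted p under 0.05; all 3 effector genes are filled in iCKO, at 1.34 to 2.10, and 1 of the 3, Bax at 0.43, in mCKO.

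The genes whose pattern was most like that of a called member were sought by the root mean square difference of log2 CPM over the 12 libraries, each set against the controls of its experiment. For Ripk3 the nearest were Tpm3 (0.14), Il4ra (0.16) and Pmp22 (0.17), against a median of 1.13 over all genes. Il4ra, an interleukin receptor gene, was also the nearest to Bbc3 (0.17), followed by Ripk3 itself (0.18). Bak1 was closest to Fbl, B4galt2 and Rap2b (0.09, 0.09 and 0.11), the first of which encodes the nucleolar protein fibrillarin. Bcl2l11 was closest to Tmem63b (0.11), Dis3l (0.12) and Stat5b (0.12). Bid and Bcl2 had no gene as near, with Snx20 (0.29), Cited1 (0.29) and Shisa4 (0.29) for Bid and Arsb (0.22), Sytl4 (0.24) and Efna2 (0.26) for Bcl2. Pmaip1 was not tested in both experiments and was left out of this search.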

How the data were processed

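Left ventricular RNA of 12 libraries was analysed from raw gene counts, which the authors deposited as whole numbers in separate tables for the mCKO experiment (17260 genes) and the iCKO experiment (17325 genes). Per the labels' protocols, a stranded kit selecting polyadenylated RNA was used. HISAT2, DESeq and GRCm38 are named in the submitters' processing notes; the counting tool is not given in the sources used here, nor is its strand setting. Groups and replicate numbers came from the sample labels.

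CPM were computed with TMM scaling within each table. After filterByExpr (minimum count 10, minimum total 15), all genes of a table were tested with quasi-likelihood fits of edgeR 4.0.16 in R 4.3.3, two-sided, with Benjamini-Hochberg adjustment over all genes and calls at 0.05. Errors after ± are standard errors unless SD is named. Each experiment had its own fit. The difference between knockouts was a contrast (mCKO over CTR1 minus iCKO over CTR2) in 1 fit of all 12 libraries on the 16673 shared genes. Libraries of mCKO and CTR1 with the same number shared their deviations from the group means (r = 0.464, 0.532 and 0.823 across genes). These were over the limit of 0.1, so block results are given there, for some genes beside those without the block. Numbers 1 and 2 also correlated with each other (0.529 and 0.553), and what a number marks is not stated. Alternatives were other scalings, no filter, DESeq2 1.42.0, voom in limma 3.58.1, non-robust estimates, the block and left-out libraries. Fits were also run on simulated counts drawn without a replicate effect, which cannot check the choice of block.

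All 9 members are named. Up to 4 called genes of each list, by smallest adjusted p, were eligible, and a part of these was named to keep the text short. Some genes given by these rules are not reported here. Members and lists were chosen with earlier results of these data known. Exons came from GENCODE M21 and promoter windows from RefSeq on GRCm38.p6.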

Additional observations from a re-analysis of the deposited data

Results flagged for a closer look

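Each gene here had log2 fold changes that differed between the 2 knockouts by the test of the difference itself (mCKO over CTR1 minus iCKO over CTR2, edgeR quasi-likelihood, adjusted p under 0.05 over all genes). Among the members these were Pmaip1 (-2.72, close to the limit of detection outside iCKO), Ripk3 (-1.88), Bbc3 (-1.75) and Bak1 (-1.08), all with the mCKO change below the iCKO change.

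The same direction, called in 9.88% of all genes, was found for 14 further genes of the lists. They were the near-identical paralogs Bcl2a1d (-3.48) and Bcl2a1b (-3.12), the cell cycle factor gene E2f1 (-2.55), the pyroptosis genes Gsdme (-2.53) and Nlrp3 (-1.93), the caspase gene Casp8 (-0.95), the necroptosis genes Mlkl (-1.44) and Cyld (-0.81), Bax (-1.32), the receptor genes Tnfrsf10b (-1.19) and Tnfrsf1b (-1.07), Bik (-1.17), Apaf1 (-0.88) and the p53 target Zmat3 (-0.76). Bcl2a1d passed the filter on low counts only through the iCKO libraries. The difference was positive, with the mCKO change above the iCKO change, for Sesn1 (2.19), Foxo3 (1.79), Ccng1 (1.75), Endog (0.99), Cycs (0.94) and Aifm1 (0.69).

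Of all 13871 genes tested for the difference, 1371 were called lower and 1521 higher. By the same test 4 of 9 macrophage markers and 2 of 5 neutrophil markers were called lower and 4 of 8 cardiomyocyte markers higher, and their part in these differences was not tested. The neutrophil marker Cxcr2 passed the filter only through the iCKO libraries.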

How the results depend on the processing

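The iCKO calls of Bak1, Bbc3 and Ripk3 held in 16 of 16 alternatives, and the differences between knockouts for Bak1 and Ripk3 in 21 of 21. The mCKO experiment depended most on the fit. Its 0 calls without the block became 3 genes higher and 1 lower with no filter on low counts, 176 and 134 with DESeq2 (1 member higher), and 978 and 861 with the replicate block (2 members higher, 1 lower). The replicate block with scaling by library totals gave 1581 and 474 genes (3 members higher, Bak1 being the third at 0.30, adjusted p = 0.028). Leaving out both libraries numbered 3 gave 514 and 526 genes without the block (2 members higher) and 218 and 170 with it. Leaving out 1 library gave 0 to 1 gene higher and no member.

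In iCKO, Bcl2l11 was no longer called, so that 0 members were lower, with scaling by library totals, with the replicate block and that scaling (1612 genes lower) or without both libraries numbered 3, where Bid also lost its call (0.92, adjusted p = 0.12). Leaving out 1 library gave 4 to 5 members higher and 0 to 1 lower. The iCKO numbers did not pair the libraries (r = 0.058, -0.090 and -0.161), and the block left 5 members higher and 1 lower, with 3055 and 2436 genes called. In the difference between knockouts, scaling by library totals gave 2145 genes lower, or 2719 with the block, and leaving out all libraries numbered 3 left 2 members lower. Leaving out 1 library gave 3 to 4 members and 910 to 1615 genes lower. Bbc3 missed the threshold in limma-voom (adjusted p = 0.051). Scaling by library totals moved the median of all genes by 0.21 in iCKO and by -0.17 in the difference.

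Among the members, signs changed only for values that were not called. With scaling by library totals Mcl1 was 0.069 in mCKO (0.066 with the block), 0.19 in iCKO (0.19) and -0.12 in the difference (-0.13), and Bcl2l1 was 0.050 in iCKO (0.047). Without both libraries numbered 3, mCKO gave -0.065 for Bcl2l1 (-0.078 with the block) and 0.033 for Mcl1 (0.034). Without iCKO replicate 3 and CTR2 replicate 2, Bcl2 was -0.030 in iCKO, and without all libraries numbered 3 Bid was 0.19 in the difference. Leaving out 1 library gave -0.11 to 0.24 for Bcl2l1 and -0.091 to 0.095 for Mcl1 in mCKO. In iCKO it gave -0.21 to 0.36 for Bcl2, -0.59 to 0.13 for Bcl2l1 and -0.15 to 0.041 for Mcl1, and in the difference -0.084 to 0.68 for Bcl2l1 and -0.070 to 0.16 for Mcl1. The cause was not tested. The 3 to 12 counts of Pmaip1 in CTR2 libraries limit its fold change.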
